A study of Rattus norvegicus with 325 samples.

Results

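The genes described here are 7 markers of T cells, Cd3d, Cd3e, Cd3g, Cd2, Cd8a, Lck and Ikzf1, followed across 4 skeletal muscles of male Sprague Dawley rats at 7 ages. They were chosen by name, as the rows of the count files that carry these symbols. All 7 were listed, each on 1 line, among 17315 distinct symbols. Whole muscle was sequenced as bulk RNA. A change in T cell number, in RNA per T cell or in expression by other cells therefore cannot be told apart in any value below.

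The libraries numbered 83 for the diaphragm, the main breathing muscle, 73 for the gastrocnemius, 84 for the soleus and 85 for the tibialis anterior. Ages ran from 6 through 9, 12 and 18 to 21, 24 and 27 months. Most combinations of muscle and age had 12 libraries. The exceptions were the 9-month diaphragm with 11, the 21-month tibialis anterior with 13, and the gastrocnemius with 10, 12, 11, 11, 9, 9 and 11 in order of age. The rats came from 1 supplier, which also aged them, and the labels name no treatment. Tissue of each age was collected on 1 day, so age and collection day cannot be told apart, and the animal behind each library is not named in the labels. Library totals lay between 17.6 and 85.3 M counts, with a median of 31.9 M. Gastrocnemius libraries carry their own series of description numbers. Another series holds the 12-month libraries of the other muscles and 1 library at 21 months from each of them. If these numbers mark a processing series, it cannot be told apart from the gastrocnemius or, in the other muscles, from 12 months of age.

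T cells recognise antigen through the T cell receptor. Cd3d, Cd3e and Cd3g encode the CD3 chains that carry the receptor to the cell surface and pass its signal on, and they are the most specific to T cells of the genes described here. Lck is the kinase that phosphorylates the CD3 chains once the receptor is engaged. Cd8a encodes a chain of the CD8 co-receptor of cytotoxic T cells, and Cd2 an adhesion molecule that binds partners on other cells. Ikzf1 encodes Ikaros, a transcription factor of the whole lymphoid lineage that myeloid cells also express. Cd2, Cd8a and Lck are also known in natural killer cells, and in the rat some macrophages carry CD8. Healthy skeletal muscle holds few T cells, which lie between the fibres and around vessels.

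In the RefSeq gene table of a newer rat assembly, GRCr8, Cd3g, Cd3d and Cd3e are neighbours on chromosome 8, with Cd3g and Cd3d read in opposite directions. RefSeq gave a promoter window for 7 of the 7 genes, of 300 bases on GRCr8, with 250 before the transcription start and 50 after it. Lck had 2, which makes 8 windows. The windows of Cd2, Lck and Ikzf1 are shown because these genes were called higher in 3 or 4 muscles. Capitals mark GGAA on either strand (TTCC on the strand shown), the core that ETS family factors bind.
Cd2, chr2:191412610-191412909, minus strand: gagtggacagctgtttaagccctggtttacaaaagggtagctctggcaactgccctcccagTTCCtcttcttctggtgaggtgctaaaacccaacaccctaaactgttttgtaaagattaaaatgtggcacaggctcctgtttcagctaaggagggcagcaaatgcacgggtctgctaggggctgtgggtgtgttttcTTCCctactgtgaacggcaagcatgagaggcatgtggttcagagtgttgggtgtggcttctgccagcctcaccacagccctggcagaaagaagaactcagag
Lck, upstream start, chr5:147201218-147201517, minus strand: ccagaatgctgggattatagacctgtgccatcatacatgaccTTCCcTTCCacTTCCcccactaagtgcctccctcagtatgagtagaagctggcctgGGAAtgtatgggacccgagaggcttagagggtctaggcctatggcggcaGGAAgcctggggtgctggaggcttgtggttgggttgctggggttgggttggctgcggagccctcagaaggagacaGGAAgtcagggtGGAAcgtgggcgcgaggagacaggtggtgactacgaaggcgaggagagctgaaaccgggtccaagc
Lck, downstream start, chr5:147183601-147183900, minus strand: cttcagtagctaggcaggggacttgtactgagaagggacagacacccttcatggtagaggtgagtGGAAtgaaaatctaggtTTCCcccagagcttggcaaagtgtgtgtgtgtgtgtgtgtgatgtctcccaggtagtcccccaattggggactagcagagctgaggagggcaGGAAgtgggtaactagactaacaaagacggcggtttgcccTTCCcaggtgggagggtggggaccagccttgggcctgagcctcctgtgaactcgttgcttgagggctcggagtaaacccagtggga
Ikzf1, chr14:90468446-90468745, plus strand: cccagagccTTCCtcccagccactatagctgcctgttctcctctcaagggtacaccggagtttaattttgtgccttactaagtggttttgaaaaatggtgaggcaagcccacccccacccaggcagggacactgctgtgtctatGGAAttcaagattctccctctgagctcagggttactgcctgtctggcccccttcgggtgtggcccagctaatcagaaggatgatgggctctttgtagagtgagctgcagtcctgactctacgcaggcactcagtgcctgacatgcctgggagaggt
The GGAA core stood in 8 of the 8 windows, but 95.8% of the 33469 rat windows of this length hold it on either strand. TGTGGT, bound by RUNX factors, was found in 2 of the 8 windows, those of Cd2 and the upstream start of Lck, against 17.3% of all windows. The E-box CANNTG was in 5 of the 8 windows against 72.1%, and the TATA box TATAAA in 0 of the 8 against 14.2%. These matches describe letters only.

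At 6 months, the youngest age, the markers were highest in the diaphragm, the question here being how the muscles differ before ageing. Levels are CPM, counts scaled to library size, on 1 scale set over all libraries by the trimmed mean of M values (TMM). A difference was called at an adjusted p under 0.05 and over 1.5-fold. Of the 6 genes that passed the filter on low counts across all muscles, which left out Cd3d, the gastrocnemius was lower than the diaphragm for 5, the soleus for 5 and the tibialis anterior for 6. Over all 12784 genes tested, 37.3%, 23.9% and 35.1% were called in either direction in these comparisons.

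Ikzf1 at 6 months ran from 2.01 through a median of 2.85 to 4.17 CPM in the diaphragm (n = 12). It ran from 0.952 through 1.91 to 2.52 CPM in the soleus (n = 12), and from 0.77 through 1.07 to 1.8 CPM in the gastrocnemius (n = 10). The tibialis anterior was at 0.439, 0.981 and 1.61 CPM (n = 12). Every diaphragm library thus lay above every gastrocnemius and tibialis anterior library, while the diaphragm and soleus overlapped. On the log2 scale the gastrocnemius was lower than the diaphragm by a difference of -1.32 (SE 0.203, adjusted p = 9.84e-10), the soleus by -0.65 (SE 0.163, adjusted p = 0.000225) and the tibialis anterior by -1.54 (SE 0.202, adjusted p = 1.24e-12).

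Lck, the receptor-proximal kinase, stood at 0.571, 0.837 and 1.39 CPM (lowest, median, highest) in the young diaphragm. For the tibialis anterior the values were 0.0439, 0.202 and 0.475 CPM, below every diaphragm library (log2 difference -1.89, SE 0.334, adjusted p = 9.03e-08). The gastrocnemius and soleus, with medians of 0.237 and 0.46 CPM, overlapped with the diaphragm and were also called lower. The highest soleus library, at 0.877 CPM, was above 6 of the 12 diaphragm libraries.

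Cd2 had medians of 0.561 CPM in the diaphragm, 0.257 in the soleus, 0.213 in the gastrocnemius and 0.181 in the tibialis anterior, and was called lower than the diaphragm in each limb muscle. Cd8a did not share this order throughout. Its soleus median of 0.562 CPM against 0.734 CPM in the diaphragm gave a log2 difference of -0.61 (SE 0.305, adjusted p = 0.0749), which was not called, while the gastrocnemius at 0.327 CPM and the tibialis anterior at 0.309 CPM were called lower than the diaphragm.

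Among the limb muscles the levels lay closer. Between the gastrocnemius and tibialis anterior 0 of the 6 genes were called by limma and 0 by edgeR, with 0 at an unadjusted p under 0.05 in limma, while 17.3% of all genes were called. The difference farthest from 0 was that of Cd3e, -0.8 on the log2 scale (SE 0.665). The soleus was above the gastrocnemius for Ikzf1 alone (0.68, SE 0.215, adjusted p = 0.00289, with 45.4% of all genes called). The tibialis anterior was below the soleus for Ikzf1 (-0.9, SE 0.214) and Cd8a (-0.83, SE 0.375, adjusted p = 0.0363), with 42.9% of all genes called. For Ikzf1 the order at 6 months was therefore diaphragm, soleus, then gastrocnemius and tibialis anterior, the last pair not separated beyond their spread. The other markers gave no such order among the limb muscles, and for Cd3e and Cd3g the soleus minus gastrocnemius differences were -0.75 (SE 0.654) and -0.11 (SE 0.649), neither called.

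From 6 to 27 months every call among the markers was a rise. Of the genes that passed the low-count filter, 3 of 6 were called higher at 27 months in the diaphragm (Cd3g, Cd2 and Lck), 3 of 4 in the gastrocnemius (Cd2, Lck and Ikzf1) and 3 of 4 in the soleus, again Cd2, Lck and Ikzf1. In the tibialis anterior 4 of 4 were called, Cd2, Cd8a, Lck and Ikzf1. Of all genes tested, 3.27%, 15.1%, 9.21% and 17.2% were called higher in these muscles. The median log2 change of the tested markers was 0.74, 1.07, 0.92 and 1.39, beside 0, 0.04, 0.02 and 0.01 over all genes. No marker was called lower at any age in any muscle. With a Bonferroni adjustment, which the study's methods name, 0, 2, 0 and 2 markers remained past the threshold, and without the high B cell marker libraries described below the diaphragm kept 1, Cd3g.

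**Figure D1:**
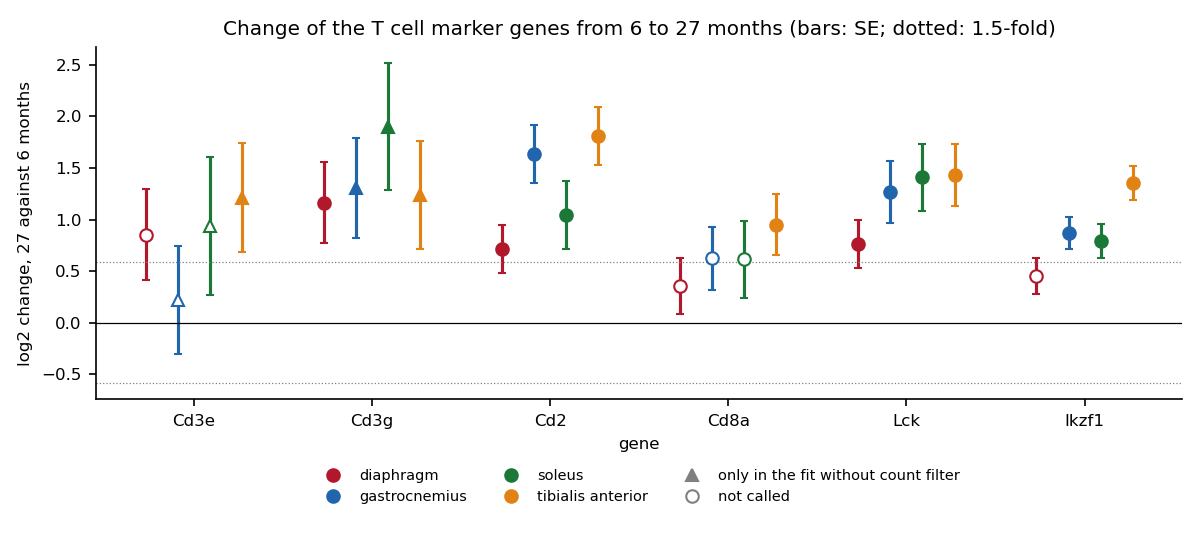
Log2 change from 6 to 27 months (vertical axis) of 6 T cell marker genes in 4 muscles (colours), with bars of 1 SE. Filled symbols were called, open ones were not, triangles are genes tested only in the fit without a filter on low counts, and dotted lines mark 1.5-fold. All values lie above 0, and the diaphragm values for Cd2, Lck and Ikzf1 are the lowest of the 4 muscles.

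The CD3 genes, the most specific of the markers, were at the edge of detection. Over the whole series Cd3d had 0 counts in 147 libraries, Cd3e in 71 and Cd3g in 92, and the highest count of any of them in any library was 31. The share of libraries without a count was lowest in the diaphragm, where Cd3d was at 0 in 15 of 83 libraries, Cd3e in 2 and Cd3g in 1.

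Cd3g in the diaphragm was at 0, 0.0988 and 0.189 CPM (lowest, median, highest) at 6 months and at 0.0809, 0.26 and 0.514 CPM at 27 months (n = 12 each). The groups overlapped, with 8 of 12 libraries at 27 months above all libraries at 6 months. The log2 change was 1.17 (SE 0.393, adjusted p = 0.0117). In the limb muscles Cd3g was too low for the filter. Counts added over a group gave 8, 13 and 7 at 6 months in the gastrocnemius, soleus and tibialis anterior, and 31, 61 and 31 at 27 months.

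Pooled CPM here are these sums over the summed library totals, without TMM scaling. In the gastrocnemius Cd3g had 0.0198 CPM at 6 months (95% exact Poisson interval 0.00853 to 0.0389) and 0.0803 CPM at 27 months (0.0545 to 0.114). The soleus went from 0.0334 (0.0178 to 0.0572) to 0.168 CPM (0.129 to 0.216). The tibialis anterior went from 0.0149 (0.00597 to 0.0306) to 0.0859 CPM (0.0584 to 0.122). The intervals of the 2 ages did not overlap in any of these muscles, but they cover counting error only and not the spread between rats.

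Fitted without the filter on low counts, Cd3g was called higher at 27 months in all 4 muscles. The log2 changes were 1.27 (SE 0.367) in the diaphragm, 1.3 (SE 0.486) in the gastrocnemius, 1.9 (SE 0.616) for the soleus and 1.24 (SE 0.523) for the tibialis anterior, with adjusted p of 0.00404, 0.0205, 0.00866 and 0.0348. In that fit 3.17%, 13.3%, 7.88% and 16.7% of all genes were called higher. At such counts the fitted change depends on the small count added before logs are taken.

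Cd3e had medians of 0.12 CPM at 6 months and 0.326 CPM at 27 months in the diaphragm, where 7 of 12 old libraries lay above all young ones and 1 old library had no count. Its log2 change there was 0.86 (SE 0.438, adjusted p = 0.104) and was not called. It was called in edgeR (1.09, adjusted p = 0.00945) and DESeq2 (1.13, adjusted p = 0.0059), and when the library labelled replicate 9 at 27 months was left out (1.1, adjusted p = 0.0202). In the unfiltered fit Cd3e was called higher in the tibialis anterior (1.21, SE 0.529, adjusted p = 0.0409). The gastrocnemius value was 0.22 (SE 0.525) and the soleus value 0.94 (SE 0.667), neither called.

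Cd3d had the fewest counts, with 14 summed counts at 6 months and 38 at 27 months in the diaphragm, 11 and 29 in the gastrocnemius, 13 and 12 in the soleus and, for the tibialis anterior, 11 and 22. Unfiltered log2 changes of 0.86, 0.94, -0.22 and 0.77 were not called in any muscle. In the gastrocnemius the pooled levels of 0.0272 CPM (95% exact Poisson interval 0.0136 to 0.0486) and 0.0751 CPM (0.0503 to 0.108) had intervals narrowly apart, which cover counting error only. These levels are not TMM-scaled. Without TMM the median log2 change over all gastrocnemius genes was 0.32, beside 0.04 with it, so this gap cannot be read as a change of Cd3d. In the other muscles the intervals of the 2 ages overlapped.

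**Figure D2:**
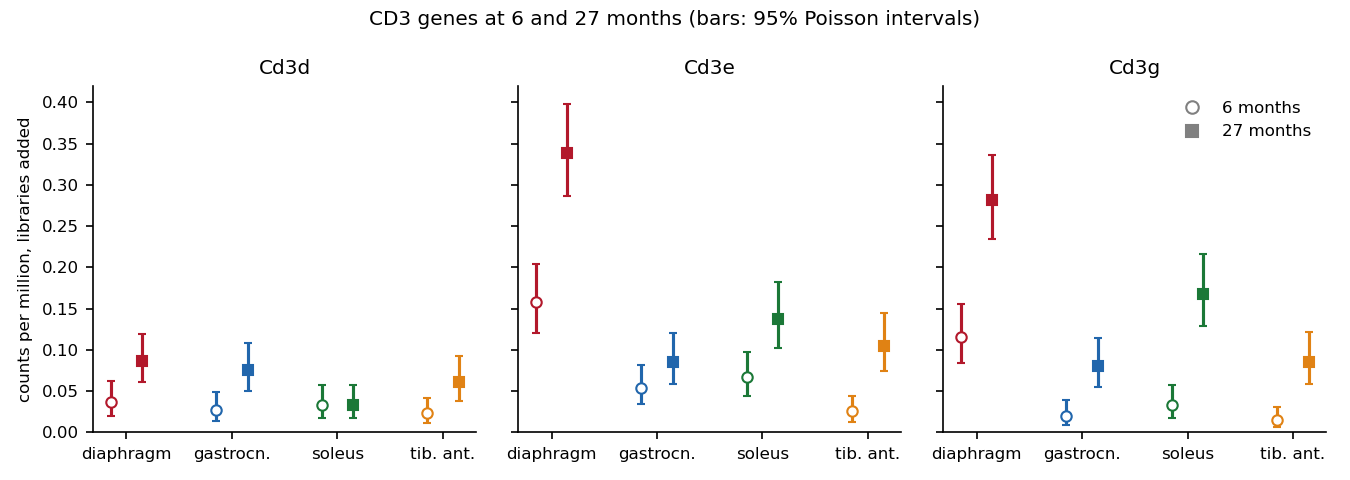
CPM of Cd3d, Cd3e and Cd3g (panels) with the libraries of a group added together, at 6 months (open circles) and 27 months (filled squares) in 4 muscles. Levels are counts over library totals without TMM scaling. Bars are 95% exact Poisson intervals for counting error. The diaphragm stands highest for Cd3e and Cd3g, and for Cd3g the intervals of the 2 ages are apart in every muscle.

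Cd2, the adhesion molecule, was called higher at 27 months in all 4 muscles. In the tibialis anterior it ran from 0.124 through 0.181 to 0.338 CPM at 6 months and from 0.282 through 0.781 to 1.13 CPM at 27 months. The log2 change was 1.81 (SE 0.278, adjusted p = 1.96e-08), and 10 of 12 old libraries were above every young one. The gastrocnemius moved from 0.0406, 0.213 and 0.396 CPM to 0.287, 0.632 and 1.03 CPM, a log2 change of 1.64 (SE 0.279, adjusted p = 6.78e-07), with 10 of 11 old libraries above every young one.

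In the soleus Cd2 ran from 0.0328 through 0.257 to 0.918 CPM at 6 months and from 0.262 through 0.59 to 0.789 CPM at 27 months. The highest young library was above every old library, yet all 12 old libraries were above the young median (log2 change 1.05, SE 0.331, adjusted p = 0.00553). In the diaphragm, values of 0.235, 0.561 and 1.13 CPM were followed by 0.438, 0.947 and 1.59 CPM, a log2 change of 0.71 (SE 0.234, adjusted p = 0.00964).

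Cd8a, the CD8 chain, was called only in the tibialis anterior. There it ran from 0.0439 through 0.309 to 0.783 CPM at 6 months and from 0.257 through 0.531 to 0.793 CPM at 27 months, with 1 of 12 old libraries above every young one and 11 of 12 above the young median (log2 change 0.95, SE 0.294, adjusted p = 0.00284). The gastrocnemius value was 0.63 (SE 0.304, adjusted p = 0.0677), the soleus value 0.62 (SE 0.374, adjusted p = 0.16) and the diaphragm value 0.36 (SE 0.273, adjusted p = 0.295). Cd8a was called in the gastrocnemius by edgeR (0.66, adjusted p = 0.0404) and DESeq2 (0.64, adjusted p = 0.0467), with total-count scaling (0.91), and when any 1 of 4 libraries was left out, those labelled replicates 2, 4 and 10 at 27 months and replicate 9 at 6 months (0.7 to 0.75). In the soleus it was called by edgeR and DESeq2 (both 0.87) and without replicate 5 at 27 months (0.82, adjusted p = 0.0494). Old soleus libraries spread widely, from 0.167 to 2.29 CPM.

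Lck was called higher in all 4 muscles. In the tibialis anterior, 0.0439, 0.202 and 0.475 CPM at 6 months became 0.188, 0.612 and 1.3 CPM at 27 months (log2 change 1.43, SE 0.305, adjusted p = 2.37e-05). In the soleus, 0.0976, 0.46 and 0.877 CPM became 0.538, 0.841 and 2.03 CPM (1.41, SE 0.321, adjusted p = 0.00013). All 12 old soleus libraries were above the young median, and 5 were above every young library.

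For the gastrocnemius the Lck values were 0.0878, 0.237 and 0.597 CPM at 6 months and 0.36, 0.566 and 1.94 CPM at 27 months (1.26, SE 0.3, adjusted p = 0.000213). The diaphragm went from 0.571, 0.837 and 1.39 CPM to 0.971, 1.43 and 3.27 CPM (0.77, SE 0.233, adjusted p = 0.00494). All 11 old gastrocnemius libraries and all 12 old diaphragm libraries were above the median of their young group.

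Ikzf1, the lineage transcription factor, had the highest counts of the 7 markers and the smallest errors. It ran from 0.439 through 0.981 to 1.61 CPM in the young tibialis anterior and from 1.36 through 2.46 to 3.6 CPM in the old, where 11 of 12 libraries were above every young one (log2 change 1.36, SE 0.168, adjusted p = 2.79e-11). In the gastrocnemius the medians were 1.07 and 2.09 CPM and the ranges 0.77 to 1.8 and 1.4 to 2.52 CPM (0.87, SE 0.155, adjusted p = 1.74e-06). In the soleus they were 1.91 and 3.19 CPM, with ranges of 0.952 to 2.52 and 2.03 to 4.08 CPM (0.79, SE 0.164, adjusted p = 2.83e-05). The diaphragm, with 2.85 and 3.78 CPM, had a log2 change of 0.45 (SE 0.173, adjusted p = 0.0266), which was under 1.5-fold and so not called.

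No marker came past the threshold before 18 months. At 9 and 12 months limma called 0 markers in each muscle. An unadjusted p under 0.05 was reached at 9 months by Cd3e in the diaphragm and by Ikzf1 in the gastrocnemius and soleus, and at 12 months by Cd3e and Cd3g in the diaphragm and Ikzf1 in the soleus. At 9 and 12 months no other tool was run. The log2 change of Cd3e in the diaphragm was 0.94 at 9 and 1.09 at 12 months, beside 0.86 at 27 months. In the diaphragm the numbers called higher were 1 at 18 months (Cd2, 0.68), 0 at 21 months (Cd3g and Cd2 had an unadjusted p under 0.05) and 2 at 24 months (Cd2, 0.84, and Ikzf1, 0.62). All genes called higher there were 0.0748% at 9, 0.307% at 12, 1.62% at 18, 1.12% at 21 and 2.19% at 24 months.

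In the gastrocnemius 2 markers were called at 18 months (Cd2, 1.38, SE 0.284, and Ikzf1, 0.7, SE 0.157), 1 at 21 months (Cd2) and 2 at 24 months (Cd2 and Ikzf1). The background was 0.101%, 0.489%, 3.63%, 4.27% and 11.4% of genes at 9, 12, 18, 21 and 24 months. The soleus had 0 markers called at 18 and 21 months, where Ikzf1 had an unadjusted p under 0.05, and 1 at 24 months, Ikzf1 (0.73, SE 0.17, adjusted p = 0.000476), against 0.0493%, 0.23%, 1.66%, 1.41% and 3.87% of genes called from 9 to 24 months.

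The tibialis anterior had 2 markers called at 18 months (Cd2 and Ikzf1), 3 at 21 months (Cd2, Cd8a and Ikzf1) and 3 at 24 months (Cd2, Lck and Ikzf1). The background at the same ages was 0.00851%, 0.145%, 4.11%, 5.5% and 10.9%. The library labelled replicate 11 at 18 months stood apart there, with 3.15 CPM of Cd2 beside a group median of 0.349 CPM, and without it Cd2 alone was called at 18 months (0.76, SE 0.268, adjusted p = 0.0198).

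A marker counted as age-related if at least 1 age differed from 6 months by the call above and a linear or logistic course of its log2 CPM beat a flat one. All age-related markers were rising and linear. They were Cd3g, Cd2, Lck and Ikzf1 in the diaphragm, Cd2, Lck and Ikzf1 in the gastrocnemius, Cd2 and Ikzf1 in the soleus, and Cd2, Cd8a, Lck and Ikzf1 in the tibialis anterior. Rising age-related genes made up 3.01%, 14.4%, 7.45% and 16.4% of the genes tested in these muscles. Cd2 had the steepest slopes, 0.0883 log2 units a month in the tibialis anterior and 0.0805 in the gastrocnemius, against 0.0363 in the diaphragm and 0.0448 in the soleus. Lck in the soleus was called at 27 months but its linear fit improved on the flat one by a Bayesian information criterion difference of 4.1, under the required 6. Without the number series that holds the 12-month libraries, Ikzf1 in the diaphragm and Cd8a in the tibialis anterior lost the class, both at a criterion difference of 5.9. Without the high B cell marker libraries none of the 6 diaphragm genes was classed as age-related, with slopes of 0.043 in place of 0.0471 for Cd3g, 0.0282 in place of 0.0363 for Cd2, 0.0248 in place of 0.0321 for Lck and 0.0113 in place of 0.0224 for Ikzf1.

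Whether the change with age differed between muscles was tested as the difference of the changes in 1 fit over all libraries. The tibialis anterior rose more than the diaphragm for Cd2 (log2 difference 1.06, SE 0.375, adjusted p = 0.0127) and Ikzf1 (0.86, SE 0.247, adjusted p = 0.00195), 2 of 6 genes beside 20.3% of all genes. limma called 0 markers in the other 5 pairs (1 marker in each of 2 pairs had an unadjusted p under 0.05, Cd2 between gastrocnemius and diaphragm and Ikzf1 between tibialis anterior and soleus, and edgeR called 1 marker in the last of these and 0 in the other 4), where 21.6% (gastrocnemius and diaphragm), 11.9% (soleus and diaphragm), 14.5% (soleus and gastrocnemius), 7.32% (tibialis anterior and gastrocnemius) and 15.8% (tibialis anterior and soleus) of genes were.

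For Cd2 the gastrocnemius exceeded the diaphragm by 0.89 (SE 0.398, adjusted p = 0.0515), which lay just outside the threshold, and by 1.05 (adjusted p = 0.0204) without the high B cell marker libraries. The change of Lck differed between the limb muscles by 0.03 (SE 0.459) between the tibialis anterior and soleus and by 0.16 (SE 0.499) between the tibialis anterior and gastrocnemius. These errors are wide, and a difference of nearly 1 log2 unit in either direction would not have been told from 0.

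Some diaphragm libraries stood apart in genes of B cells, the antibody-making lymphocytes. Of 8 B cell markers 7 were listed, and none of the listed was at 0 throughout any 6-month or 27-month group. Their summed level in the diaphragm ran from 0.189 through 0.855 to 3.74 CPM at 6 months and from 0.578 through 0.863 to 10.9 CPM at 27 months. In the limb muscles at these ages it lay between 0 and 1.04 CPM, and no B cell marker passed the filter there. A library was set apart when its sum, on the scale of its own muscle, was over 3 times the muscle's median and over 1 CPM. On the common scale the diaphragm median was 1.45 CPM. There were 16 such libraries of 83, with 0 at 6 months, 2 at 9, 2 at 12, 1 at 18, 2 at 21, 6 at 24 and 3 at 27 months. No limb muscle library met this rule on the scale of its own muscle. On the common scale 2 tibialis anterior libraries, at 1.02 and 1.04 CPM beside a muscle median of 0.303 CPM, would have met it.

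The summed level of the 7 T cell markers had a median of 9.93 CPM in these 16 libraries and 6.38 CPM in the other 67 diaphragm libraries. These medians pool ages that differ in their share of such libraries. Within 24 months the medians were 9.53 and 7.69 CPM, within 27 months 12.5 and 6.75 CPM, and within 9 months 7.32 and 5.51 CPM. Ikzf1, a factor of the whole lymphoid lineage, had a median share of this sum of 47.6% at 21 months to 53.1% at 6 months. Leaving the 16 out, 1 marker was called higher at 27 months in the diaphragm, with 3.22% of all genes called. That marker was Cd3g (1.16, SE 0.376, adjusted p = 0.00938), Cd2 had 0.54 (adjusted p = 0.0644), Lck 0.55 (adjusted p = 0.0404, under 1.5-fold) and Ikzf1 0.27 (adjusted p = 0.126). At 24 months 0 markers were then called in place of 2. The part of B cells in the diaphragm values of the T cell markers was not tested.

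**Figure D3:**
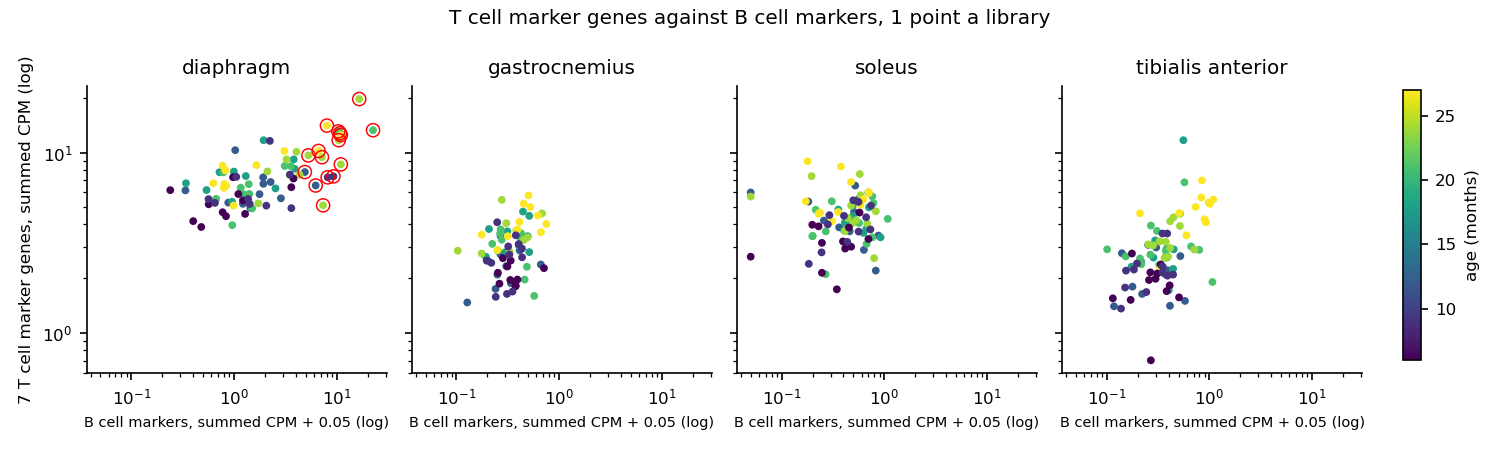
Summed CPM of the 7 T cell marker genes (vertical, log axis) against the summed CPM of B cell markers plus 0.05 (horizontal, log axis), with 1 point a library coloured by age in months and 1 panel for each muscle. Red circles mark the 16 diaphragm libraries with high B cell markers, which have a median of 9.93 CPM for the T cell markers. By the rule on the scale of each muscle, no other muscle has such libraries.

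Within a muscle, after removal of the age means, the mean log2 CPM of the tested T cell markers went with that of the B cell markers in the diaphragm (Pearson r = 0.5, Spearman rho = 0.41, n = 83, r = 0.44 without the 2 farthest libraries). In the gastrocnemius, soleus and tibialis anterior r was 0.14, 0.07 and 0.24 (n = 73, 84 and 85). With 10 macrophage markers r was 0.63, 0.53, 0.42 and 0.49, with the diaphragm named first and the other muscles in the order above, and 0.63, 0.47, 0.37 and 0.32 without the 2 farthest libraries. These are descriptions over libraries that share scaling and depth.

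Among the better counted markers, correlations between genes were highest in the diaphragm. Over the 6 pairs of Cd2, Cd8a, Lck and Ikzf1, r between libraries of 1 age ranged from 0.59 to 0.68 there, with a median of 0.62. The 9 diaphragm pairs that include Cd3e or Cd3g, which had few counts, were lower, at 0.13 to 0.3. In the limb muscles r over the 6 pairs ranged from 0.08 to 0.45 in the gastrocnemius, 0.01 to 0.37 for the soleus and 0.22 to 0.64 for the tibialis anterior. Counts per library were lower in the limb muscles, with a median of 11 for Lck in the tibialis anterior and 39 in the diaphragm, and the part of depth in this difference was not tested.

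The 10 genes most alike in their spread, out of 11513 measured in all muscles, were found by the mean over muscles of the residual correlation with the markers that passed the filter, 6 in the diaphragm and 4 in each limb muscle, where no CD3 gene was among them. They were Dock8 and Laptm5 (both 0.59), Rac2 (0.57), Ptprc (0.56), Myo1f, Hmha1, Lcp1 and Spn (0.54 each), and Akna and Syk (0.53 each). Ptprc encodes CD45, the phosphatase on all white blood cells, and Rac2 and Lcp1 encode a GTPase and an actin-bundling protein of blood cells. Cd4 ranked 11 and Ikzf3 18, while the macrophage markers C1qb and Cd68 ranked 25 and 28. Ikzf1 made up 53.1% of the summed CPM of the 7 markers in the young diaphragm.

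Other genes known from T cells were followed on 5 lists, covering receptor signalling, co-stimulation and inhibition, transcription factors, cytotoxic effectors, and migration and cytokine receptors. Of 65 such genes 56 were listed. At 27 months 10 of 46 tested were called higher in the diaphragm, 28 of 39 in the gastrocnemius, and 14 of 41 and 30 of 39 in the soleus and tibialis anterior. Beside these stand the 3.27%, 15.1%, 9.21% and 17.2% of all genes called higher in the diaphragm, gastrocnemius, soleus and, last, the tibialis anterior. The median log2 changes of these listed genes were 0.37, 1.13, 0.62 and 1.33. The lists are not specific to T cells and include Ptprc, found on all white blood cells. In the young diaphragm Ets1, S1pr1, Cd48 and Ptprc had medians of 129, 91.2, 64.6 and 20.8 CPM, beside 0.12 CPM for Cd3e. The part of other cells in these counts was not tested. Called lower were 0, 2, 2 and 2 genes, where 4.25%, 7.76%, 5.78% and 10.4% of all genes were called lower. Without the high B cell marker libraries the diaphragm count was 6.

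Called higher in all 4 muscles were 3 genes, Ctsw (a protease of cytotoxic lymphocytes), Ikzf3 (a relative of Ikzf1) and Il2rb (the beta chain of the interleukin-2 receptor). A further 12 were called in 3 muscles, among them Cd247, which encodes the zeta chain of the receptor complex, and Zap70, the kinase that acts after Lck. The share of all genes called in 3 or 4 muscles was not counted. Whether these genes are shared more often than others therefore cannot be read from these counts. In the diaphragm Cd247 had medians of 0.278 CPM at 6 months and 0.588 CPM at 27 months (log2 change 1.07, SE 0.31, adjusted p = 0.00317). Pdcd1, the inhibitory receptor PD-1, had the largest change of the called genes on these lists there, from 0, 0.0749 and 0.235 CPM to 0.175, 0.412 and 0.895 CPM (2.34, SE 0.498, adjusted p = 7.01e-05). At such young levels it may have passed the low-count filter through older libraries alone.

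Cytotoxic effectors were called higher for 6 of 6 tested genes in the soleus, with a median log2 change of 2.13, and for 4 of 4 in the gastrocnemius, with 1.59. Of the list, 8 genes were in the count files. The low-count filter takes libraries of any age, so a gene low at 6 months can pass through older libraries alone. These counts and medians can therefore favour rises, and are no measure of how many effectors rose. Gzmk and Gzmb, which encode granzymes, had soleus log2 changes of 2.7 (SE 0.672, adjusted p = 0.000436) and 2.66 (SE 0.609, adjusted p = 0.000138), and neither passed the filter in the gastrocnemius. Gzmb ran from 0 through 0.102 to 0.293 CPM in the young soleus and from 0.0937 through 0.442 to 1.16 CPM in the old. In the diaphragm Gzmb had medians of 0.121 and 0.234 CPM (1.2, SE 0.457, adjusted p = 0.0263), and 2 of 6 effectors were called. The tibialis anterior had 4 of 5 called. The count of called effectors was not compared between muscles by a test.

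Cd28, the co-stimulatory receptor, had log2 changes above those of every CD3 gene in the limb muscles, a difference between genes that was not tested. It went from 0.359, 0.99 and 1.39 CPM to 9.97, 21.8 and 31.3 CPM in the gastrocnemius (log2 change 4.45, SE 0.331, adjusted p = 8.03e-19), where every old library was above every young one. In the soleus it had medians of 1.31 and 16.5 CPM (3.69, SE 0.453, adjusted p = 5.79e-11) and in the tibialis anterior 1.95 and 25.3 CPM (3.58, SE 0.358, adjusted p = 9.23e-15). In the diaphragm the medians were 0.935 and 0.812 CPM and Cd28 was not called. By the measure of likeness above, Cd28 had a mean residual correlation of 0.13 with the markers that passed the filter, at rank 2205 of 11513. Its level was also far from that of the CD3 genes. In the old gastrocnemius its median of 21.8 CPM stood beside 0.0998 CPM for Cd3e and 0.0654 CPM for Cd3g. Which cells gave the Cd28 reads was not tested, so its rise cannot be read as one of T cells.

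The chemokine receptors Cxcr6 and Ccr7 were each called higher in 3 muscles. Cxcr6 went from a median of 0.0928 to 0.514 CPM in the gastrocnemius (2.95, SE 0.511, adjusted p = 9.16e-07) and from 0.0853 to 0.916 CPM in the tibialis anterior (3.4, SE 0.451, adjusted p = 2.78e-10). Ccr7, a receptor for homing to lymph nodes, went from 0.134 to 1.34 CPM in the tibialis anterior (3.69, SE 0.459, adjusted p = 3.2e-11). The highest young tibialis anterior libraries were at 0.214 CPM for Cxcr6 and 0.266 CPM for Ccr7. Both may thus have passed the low-count filter there through older libraries alone. Ctsw in the gastrocnemius went from 0.0517 to 0.425 CPM (2.5, SE 0.483, adjusted p = 8.36e-06).

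The genes called lower were named after their values were seen. Foxp3, the factor of regulatory T cells, was lower in the gastrocnemius (-2.15, SE 0.284, adjusted p = 9.74e-10), with medians of 6.53 and 1.65 CPM, and in the tibialis anterior (-2.11, SE 0.336), with 5.53 and 1.72 CPM, but higher in the soleus (0.95, SE 0.419, adjusted p = 0.0491), with 0.129 and 0.28 CPM. In GRCr8 the Foxp3 gene overlaps Ccdc22 and Ppp1r3f, and the sources used here do not say whether counting used strand, so its reads and those of these neighbours cannot be told apart. The other calls were S1pr1 in the gastrocnemius (-0.59), Cd5 (-0.73) and Lef1 (-1.14) in the soleus, and Ikzf2 in the tibialis anterior (-0.72).

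**Figure D4:**
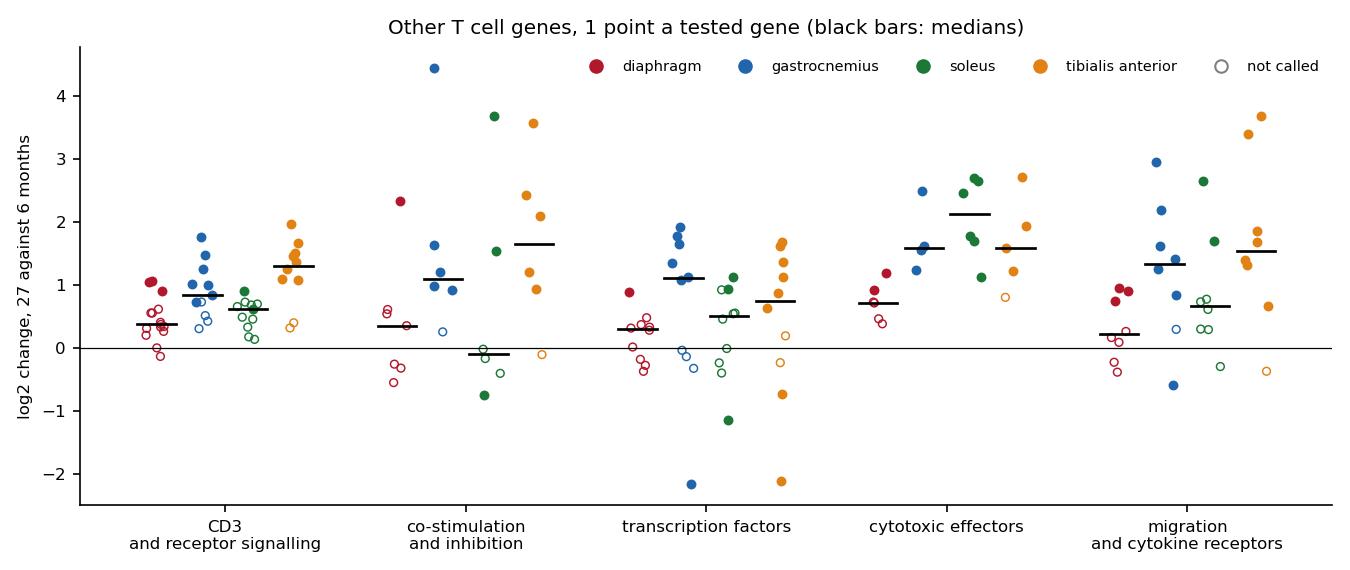
Log2 change from 6 to 27 months (vertical axis) of the other T cell genes on 5 lists (horizontal axis) in 4 muscles (colours), with 1 point a tested gene, filled where called, and black bars at the list medians. Cd28 in the gastrocnemius is the highest point at 4.45, and Foxp3 in the gastrocnemius the lowest at -2.15.

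Markers of other white blood cells moved in the same muscles. At 27 months 9 of 10 macrophage markers were called higher in the gastrocnemius and 9 of 10 in the tibialis anterior, against 1 of 10 in the diaphragm and 2 of 10 in the soleus. Of all genes, 15.1% and 17.2% were called higher in the former pair of muscles and 3.27% and 9.21% in the latter, which also stands beside the counts for other cells here. The median log2 change of the macrophage markers was 0.52 in the soleus and 0.38 in the diaphragm. Several there had an adjusted p under 0.05 but were under 1.5-fold, such as Csf1r in the soleus (0.53, adjusted p = 3.99e-06). Cd14 was below 0 in both (-0.13 and -0.05). The macrophage summed level went from a median of 68.1 CPM (51.3 to 80.5) to 187 CPM (110 to 234) in the tibialis anterior. In the soleus it went from 224 CPM (173 to 274) to 296 CPM (272 to 373). In the diaphragm it went from a median of 188 to one of 245 CPM, where the lowest libraries were at 138 and 204 CPM. Of 5 natural killer cell markers, 0 of 3 tested were called in the diaphragm, 3 of 3 in the gastrocnemius and tibialis anterior and 1 of 2 in the soleus. Neutrophil markers were called for 2 of 3, 2 of 2, 1 of 3 and 2 of 2 tested genes. None of these markers was at 0 throughout a group at either age. The part of these cells was not tested, neither in the values of Cd2, Cd8a, Lck and Ikzf1 nor in those of the other T cell genes. The latter include the cytotoxic effectors and Il2rb, which are thus not separated from natural killer cells.

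Markers of blood and of the fibres themselves were also read. Of 4 red cell markers, 0 were called higher in the diaphragm and gastrocnemius, and 1 each in the soleus and tibialis anterior. Of 4 listed muscle fibre markers, 1 was called higher in the diaphragm and 1 in the soleus (Myh4 in both), and 2 and 3 were called lower in the gastrocnemius and tibialis anterior. The summed fibre level in the tibialis anterior had medians of 164000 and 77100 CPM. With scaling by total count the median log2 change over all genes was 0.32 in the gastrocnemius, 0.16 for soleus libraries and 0.34 for those of the tibialis anterior, so that genes called higher were 27.5%, 13.3% and 30.8% of those tested. The calls for the markers at 27 months kept their direction under that scaling, with log2 changes of 2.12 for Cd2 and 1.68 for Ikzf1 in the tibialis anterior.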

How the data were processed

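RNA of 325 rat muscle libraries was measured as strand-specific, ribosome-depleted, paired-end RNA-seq. The authors deposited raw counts per gene, made with the ArrayStudio pipeline on the rat B6.0 reference and an in-house RefSeq-based gene model. Versions, and whether counting used strand, are not given in the sources used here. Lines of 1 symbol were summed.

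Groups (muscle and age) came from the sample labels. Per muscle, genes were kept with filterByExpr (minimum count 10, minimum total count 15), scaled by TMM (edgeR 4.0.16) and fitted with limma-voom (limma 3.58.1, R 4.3.3) over all 7 ages, two-sided. A call needed a Benjamini-Hochberg adjusted p under 0.05 over all genes tested and more than 1.5-fold. Trends were null, linear or 4-parameter logistic models of log2 CPM (prior count 0.5), accepted at a BIC step of 6 and, for the logistic form, 2. Muscles were compared in 1 limma-voom fit over all libraries. edgeR's quasi-likelihood test and DESeq2 1.42.0 were alternatives. The scripts were tested on simulated data. The named genes are the 7 markers, the 3 called genes of the T cell lists with the largest change in each muscle, and the 10 most alike genes. The 7 markers and the gene lists were chosen with earlier results of these data known. Libraries of a group are taken as separate rats. The labels do not state this, but the study gives its sample numbers per muscle and age as numbers of animals. Without it, p-values would measure technical spread only. Protein sequences were not used here.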

Additional observations from a re-analysis of the deposited data

Results flagged for a closer look

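The change from 6 to 27 months differed between the tibialis anterior and the diaphragm for 2 of the 6 markers tested, by a test of the difference itself, beside 20.3% of all genes. Cd2 rose more in the tibialis anterior by 1.06 on the log2 scale (changes of 1.81 and 0.71 in the fits of each muscle), and Ikzf1 by 0.86 (1.36 and 0.45). The diaphragm started from higher levels of both genes.

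A single low library was found for Cd2 in the gastrocnemius at 6 months. The library labelled replicate 7 was at -4.04 log2 CPM, with 1 count, and its nearest neighbour of the 10 libraries at -2.7, a gap of 0.484 of the group's range. Only gastrocnemius groups of 9 or 10 libraries could be checked, 21 combinations of gene and group, of which chance flags about 5%. Without single libraries the log2 change of Cd2 in the gastrocnemius stayed between 1.47 and 1.74.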

How the results depend on the processing

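Of 165 alternative values for the changes of single markers at 27 months, 145 kept their direction and side of the threshold, 11 lost and 9 gained a call, and none reversed. Leaving out single libraries at 6 or 27 months changed 6 of 420 values, each a gained call, and the numbers of markers called stayed at 3 to 4 in the diaphragm, gastrocnemius and soleus and at 4 in the tibialis anterior. Bonferroni adjustment gave 0 markers called in the diaphragm and soleus and, for the tibialis anterior, 2. Among other T cell genes it called 0 higher in the diaphragm, 17 and 4 in the gastrocnemius and soleus, and 15 in the tibialis anterior. It left 0 markers that differed in change between the tibialis anterior and diaphragm, and, for levels at 6 months, 1, 0 and 2 markers against the diaphragm (gastrocnemius, soleus, tibialis anterior) and 0 in both comparisons of the soleus with the other limb muscles.

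For the change between gastrocnemius and diaphragm, 1 marker was called in place of 0 with RLE size factors, 2 with total-count scaling, and 1 without the high B cell marker libraries, an alternative chosen after seeing the data. Between the tibialis anterior and soleus 1 was called with total-count scaling and 1 with edgeR. Total-count scaling gave 2 markers higher in the soleus than the gastrocnemius at 6 months. Without the high B cell marker libraries the diaphragm had 1 marker called at 27 months, 0 at 24 months, 0 with a rising trend and 6 other T cell genes. Without the library labelled replicate 11 the tibialis anterior had 1 marker called at 18 months, also chosen after seeing the data. The causes were not tested.

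Whether replicate numbers mark the same rat is not stated. Across ages they did not pair the libraries, with 2 or 3 of the 10 to 12 pairs at 6 and 27 months correlated over 0.1 in each muscle. Between muscles the same numbers correlated over 0.1 in 26 of 72 to 61 of 83 pairs (median r 0.043 to 0.197, against -0.026 to -0.011 for other numbers), most often between diaphragm and tibialis anterior, which is a hint of shared rats from the data and not from the labels. In the fit over all libraries, libraries of the same age and replicate number were treated as correlated. There 1 marker was called in place of 0 for gastrocnemius against diaphragm (Cd2, 0.88). The fits of each muscle used a different model, with replicate number as a factor across ages. Rats were killed at collection, so this ties libraries of different rats and is no check on shared rats. At 27 months it gained calls for Cd3e in the diaphragm (0.9, adjusted p = 0.045) and Cd8a in the gastrocnemius (0.68, adjusted p = 0.0452). It changed no other call of a marker.

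Values that were not called changed sign in edgeR for the change of Cd3e (soleus minus diaphragm, -0.295), Cd8a (soleus minus gastrocnemius, 0.22, and tibialis anterior minus soleus, -0.13), Lck (soleus minus gastrocnemius, -0.045) and Cd3g (tibialis anterior minus gastrocnemius, 0.46), and for the 6-month level of Cd2 (tibialis anterior minus gastrocnemius, -0.024) and Cd3g (soleus minus gastrocnemius, 0.24, and 0.31 with total-count scaling). Depth limits the CD3 genes above all, since 3 counts over a group's libraries, the most that a count of 0 allows, come to 0.00637 to 0.00831 CPM.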
